A study of Mus musculus with 6 samples.

Results

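The cytotoxic granule genes were 10 genes linked to the granules with which CD8+ T cells kill, and they were chosen by name. They were *Prf1*, the 5 granzyme genes *Gzma*, *Gzmb*, *Gzmc*, *Gzmk* and *Gzmm*, and *Srgn*, *Ctsw*, *Nkg7* and *Serpinb9*. All 10 were found among the 57126 genes of the deposited count table, and all 10 passed the filter on low counts, which kept 26154 genes. The RNA sequenced came from 6 samples of CD8+ T cells of OT-I mice, which carry a transgenic receptor for an ovalbumin peptide. The cells were taken from spleens and lymph nodes, cultured with nano-aAPCs, magnetic nanoparticles that present the peptide on MHC class I beside a CD28 antibody, and harvested on day 6. The 3 TEff samples grew with IL-2, and the 3 TRM-like samples grew with IL-2 plus both IL-15 and TGF-β, so that IL-15 and TGF-β were added together and their parts cannot be told apart. The series text gives mouse cytokines, and the study's expansion methods name human IL-2. The age and sex of the mice, and whether the 3 replicates of a group came from separate mice or cultures, were not given in the sources used here, so the p-values measure the spread between these samples, which may be technical.

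When a killer T cell meets its target, lysosome-related granules move to the contact site and empty onto the target. Perforin opens pores in the target's membrane, and granzymes, a family of serine proteases, enter through them and cleave proteins that lead to cell death. Inside the granule the enzymes are packed on the proteoglycan serglycin, and in the cytosol the killer cell holds serpins that block granzyme that leaks.

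The total of counted reads was 18319013 to 21960760 in the TEff samples and 21178756 to 23622621 in the TRM-like samples. Between 24229 and 24908 genes had a count in each TEff sample and in TRM-like replicate 3, but 35130 and 35559 genes did in TRM-like replicates 1 and 2. TRM-like replicate 3 also stood apart from replicates 1 and 2 in several granule genes, so the results are given with it and without it. Without it, both TRM-like samples left have the high number of genes with a count, and no TEff sample does. In that fit the group and this library difference cannot be told apart. Levels are CPM, read counts scaled to one common library size with edgeR's TMM factors, errors are SD over the 3 samples of a group, and comparisons between genes use CPM per kilobase of the deposited gene length. A gene was called when its adjusted p was below 0.05 and its log2 fold change was above 0.58 in size. In these bulk samples, fewer cells that express a gene and less RNA of that gene per cell cannot be told apart.

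The TRM-like cells had less RNA of the pore former and of the most abundant granzyme than the TEff cells, and more of *Ctsw*, another protease gene among the 10. *Prf1* was 6.40-fold lower, *Gzmb* was 3.76-fold lower, and *Serpinb9*, whose protein blocks granzyme B, was 2.18-fold lower in mean CPM. The mean of *Ctsw* was 2.20 times the TEff mean. *Gzma*, *Gzmc*, *Gzmk*, *Gzmm*, *Srgn* and *Nkg7* did not pass the threshold. Thus 3 of the 10 genes were called lower, against 1.48% of all genes tested, and 1 was called higher, against 1.52% of all genes tested. The same 3 genes had every TRM-like sample below every TEff sample, as did 9.71% of all genes tested, and *Ctsw* had every TRM-like sample above, as did 10.6%. The median log2 fold change of the 10 genes was -0.10, beside 0.02 over all genes tested.

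**Figure D1:**
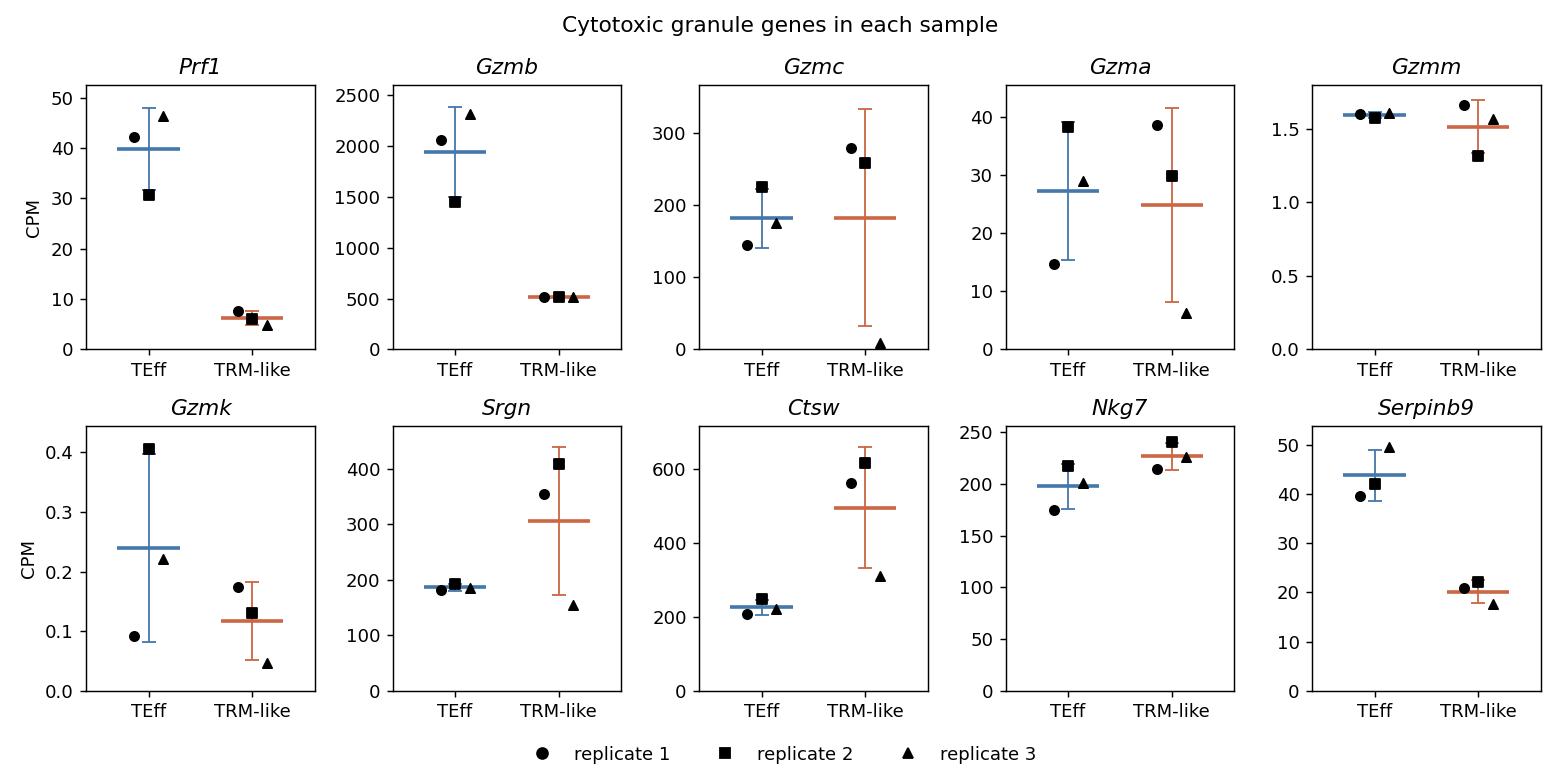
CPM of each of the 10 cytotoxic granule genes in the 3 TEff and 3 TRM-like samples, one panel a gene with its own axis from 0; markers are the replicates, horizontal bars the group means and whiskers the SD. *Prf1*, *Gzmb* and *Serpinb9* lay lower in every TRM-like sample than in any TEff sample, and TRM-like replicate 3 (triangle) lay far below replicates 1 and 2 for *Gzmc*, *Gzma*, *Srgn* and *Ctsw*.

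The positions of the genes are given in the mouse genome GRCm39. *Gzmb* (ENSMUSG00000015437, chr14:56496295-56499717, minus strand) and *Gzmc* (ENSMUSG00000079186, chr14:56468857-56479211, minus strand) belong to a cluster of 7 granzyme genes on 145 kb of chromosome 14, with *Gzmd*, *Gzme*, *Gzmf*, *Gzmg* and *Gzmn*. *Gzma* (ENSMUSG00000023132, chr13:113230355-113237524) and *Gzmk* (ENSMUSG00000042385, chr13:113308142-113362442) lie together on the minus strand within 132 kb of chromosome 13. *Prf1* (ENSMUSG00000037202, chr10:61133546-61140461, plus strand), *Gzmm* (ENSMUSG00000054206, chr10:79524854-79531095, plus strand) and *Srgn* (ENSMUSG00000020077, chr10:62329029-62363238, minus strand) lie apart from each other on chromosome 10. *Serpinb9* (ENSMUSG00000045827) lies at chr13:33187233-33201940 on the plus strand, *Nkg7* (ENSMUSG00000004612) at chr7:43086497-43087678 on the plus strand, and *Ctsw* (ENSMUSG00000024910) at chr19:5515071-5518535 on the minus strand.

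The promoters of the 3 genes called lower are shown, with that of *Gzmc* as the cluster neighbour of *Gzmb* that was not called. The promoter of *Ctsw*, the gene called higher, held no motif searched and is not printed. Each sequence runs 5′ to 3′ along the gene's own strand of GRCm39, from 250 bases before to 50 bases after the start of the GENCODE canonical transcript. Capitals mark matches on either strand to the short motifs searched, which are described after the sequences.
*Prf1* promoter, chr10:61133296-61133595, plus strand: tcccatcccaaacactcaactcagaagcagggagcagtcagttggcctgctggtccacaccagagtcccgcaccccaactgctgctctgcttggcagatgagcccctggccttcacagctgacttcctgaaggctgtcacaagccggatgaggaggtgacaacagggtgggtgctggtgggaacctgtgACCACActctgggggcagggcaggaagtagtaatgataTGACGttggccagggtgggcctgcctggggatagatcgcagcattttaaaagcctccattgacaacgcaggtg
*Gzmb* promoter, chr14:56499668-56499967, minus strand: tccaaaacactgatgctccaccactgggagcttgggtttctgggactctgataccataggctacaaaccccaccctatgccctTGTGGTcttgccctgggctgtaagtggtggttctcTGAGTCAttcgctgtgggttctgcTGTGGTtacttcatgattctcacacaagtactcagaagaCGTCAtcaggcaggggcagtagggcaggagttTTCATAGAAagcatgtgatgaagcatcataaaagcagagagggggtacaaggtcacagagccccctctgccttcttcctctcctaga
*Gzmc* promoter, chr14:56472064-56472363, minus strand: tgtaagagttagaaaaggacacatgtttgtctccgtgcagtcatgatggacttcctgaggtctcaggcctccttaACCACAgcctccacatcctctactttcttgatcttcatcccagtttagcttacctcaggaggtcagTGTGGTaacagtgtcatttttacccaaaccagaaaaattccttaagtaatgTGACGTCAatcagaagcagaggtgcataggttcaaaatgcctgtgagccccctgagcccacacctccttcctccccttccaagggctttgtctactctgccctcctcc
*Serpinb9* promoter, chr13:33188274-33188573, plus strand: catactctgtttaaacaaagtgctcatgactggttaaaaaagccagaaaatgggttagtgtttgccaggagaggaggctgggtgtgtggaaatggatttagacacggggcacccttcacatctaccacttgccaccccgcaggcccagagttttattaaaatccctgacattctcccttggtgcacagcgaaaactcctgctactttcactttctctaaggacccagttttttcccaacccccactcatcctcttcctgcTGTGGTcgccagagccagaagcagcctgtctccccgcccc

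The capitals in the *Prf1* promoter are a RUNX motif (TGTGGT, here as its reverse complement) 61 bases before the start and a short CREB/ATF site (TGACG) 23 bases before it. In the *Gzmb* promoter they are RUNX motifs 167 and 108 bases before the start, an AP-1 motif (TGANTCA) at 132, a short CREB/ATF site on the other strand at 69 and a STAT5 motif (TTCNNNGAA) at 37. *Gzmc* held RUNX motifs at 175 and 109 and a full CREB/ATF motif (TGACGTCA) at 58, which contains the short site on both strands. The *Serpinb9* window held 1 RUNX motif, 10 bases after the start. The RUNX motif, bound by Runx family factors such as Runx3, was in 8 of the 10 windows, all but those of *Gzmk* and *Ctsw*, and in 15.3% of the 21770 windows of protein-coding genes. AP-1 letters were only in the *Gzmb* window of the 10, against 7.14% of all windows, and the full CREB/ATF motif was only in that of *Gzmc*, against 2.44%. The short CREB/ATF site TGACG was in 4 of the 10 windows (22.6% of all), STAT5 in 3 (8.81%), the T-box site GGTGTGA in 2 (3.87%) and the short SMAD site CAGAC in 2 (48.4%). The SMAD box GTCTAGAC and the ETS motif CCGGAAGT were in none of the 10, and in 0.266% and 4.35% of all windows. No motif searched was in the *Ctsw* window. A match describes these letters and does not show that a factor binds there.

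Perforin, the product of *Prf1*, had the largest fold change of the 10 genes. *Prf1* stood at 42.2, 30.6 and 46.4 CPM in TEff replicates 1, 2 and 3, and at 7.72, 6.03 and 4.89 CPM in TRM-like replicates 1, 2 and 3. The lowest TEff sample was thus several times above the highest TRM-like sample, and the groups did not overlap. The mean was 39.7 ± 8.15 CPM in TEff and 6.21 ± 1.42 CPM in TRM-like cells. The log2 fold change was -2.67 (SE 0.22), with an adjusted p of 0.000438 by edgeR's quasi-likelihood F test, Benjamini-Hochberg adjusted. Without TRM-like replicate 3 the log2 fold change was -2.54 (SE 0.19). The counts behind these values were 605 to 923 reads per TEff sample and 106 to 177 per TRM-like sample.

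Granzyme B, which cleaves after aspartate and can activate caspases, was the most abundant granzyme in all 6 samples. *Gzmb* stood at 2056, 1454 and 2318 CPM in TEff replicates 1, 2 and 3. It stood at 519, 517 and 513 CPM in TRM-like replicates 1, 2 and 3. The 3 TRM-like samples lay within a few CPM of each other, whereas the TEff samples spread widely, with replicate 2 the lowest, and no TRM-like sample reached any of them. The means were 1943 ± 443 and 516 ± 2.76 CPM, and the log2 fold change was -1.91 (SE 0.19; adjusted p = 0.00130 by edgeR's quasi-likelihood F test, Benjamini-Hochberg adjusted). Unlike *Gzmc*, *Gzmb* was at the same level in TRM-like replicate 3 as in replicates 1 and 2, and without replicate 3 its log2 fold change was -1.92 (SE 0.17). The counts were 28728 to 44975 reads per TEff sample and 11128 to 11891 per TRM-like sample. Counting error at these depths was small against the spread of the TEff samples, but not against that of the TRM-like samples.

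Granzyme C, a protease of strongly activated mouse killer cells, is encoded next to granzyme B, yet its RNA did not follow *Gzmb*. *Gzmc* stood at 145, 226 and 174 CPM in TEff replicates 1, 2 and 3, and at 279, 258 and 9.45 CPM in TRM-like replicates 1, 2 and 3. TRM-like replicates 1 and 2 were above every TEff sample, and replicate 3 was below every TEff sample, with 205 reads against 6406 and 5915. Its level was 0.0352 of the mean of the other TRM-like samples. The group means, 181 ± 41.0 and 182 ± 150 CPM, therefore describe none of the TRM-like samples, and the log2 fold change of 0.01 (SE 0.83) had an adjusted p of 0.997 by edgeR's quasi-likelihood F test, Benjamini-Hochberg adjusted. Without replicate 3 the log2 fold change was 0.56 (SE 0.15), just under the fold threshold, at an adjusted p of 0.0194 in the same edgeR test.

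*Gzma* encodes a tryptase, granzyme A, and varied as much within a group as between groups. It stood at 14.7, 38.3 and 28.9 CPM in TEff replicates 1, 2 and 3, and at 38.6, 29.8 and 6.27 CPM in the TRM-like replicates. TRM-like replicate 3 was the lowest of the 6 samples, as for *Gzmc*, and the groups overlapped. The log2 fold change was -0.13 (SE 0.56; adjusted p = 0.944, edgeR's quasi-likelihood F test, Benjamini-Hochberg adjusted), and without replicate 3 it was 0.32 (SE 0.27; adjusted p = 0.460 in the same edgeR test). *Gzmm*, which encodes a protease that cleaves after methionine and leucine, had 1.57 to 1.603 CPM in the TEff and 1.31 to 1.66 CPM in the TRM-like samples, from 29 to 38 reads in every sample. The log2 fold change of *Gzmm* was -0.07 (SE 0.25). *Gzmk*, encoding another tryptase, was close to silent, with 2, 8 and 4 reads in TEff and 4, 3 and 1 reads in TRM-like replicates 1, 2 and 3, so that only a very large difference could have been seen at this depth.

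The make-up of the granzyme RNA differed along with its amount. Per kilobase, the granzymes summed to 1612, 1319 and 1843 CPM in TEff replicates 1, 2 and 3 and to 717, 681 and 375 CPM in TRM-like replicates 1, 2 and 3, so that every TRM-like sample was below every TEff sample. *Gzmb* made up 88.8%, 76.8% and 87.6% of that sum in the TEff replicates and 50.4%, 52.8% and 95.2% in the TRM-like replicates. *Gzmc* made up 10.03%, 19.1% and 10.6% in TEff and 43.6%, 42.4% and 2.82% in TRM-like samples. *Gzma* added 0.905% to 2.89% in TEff and 1.66% to 5.34% in TRM-like samples. TRM-like replicates 1 and 2 thus held nearly as much *Gzmc* as *Gzmb* RNA per length, at a *Gzmb* to *Gzmc* ratio of 1.16 and 1.24, and replicate 3 held almost *Gzmb* alone, at a ratio of 33.8. The TEff ratios of 8.86, 4.01 and 8.27 lay between, so the shares of these genes overlapped between groups once replicate 3 was counted.

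**Figure D2:**
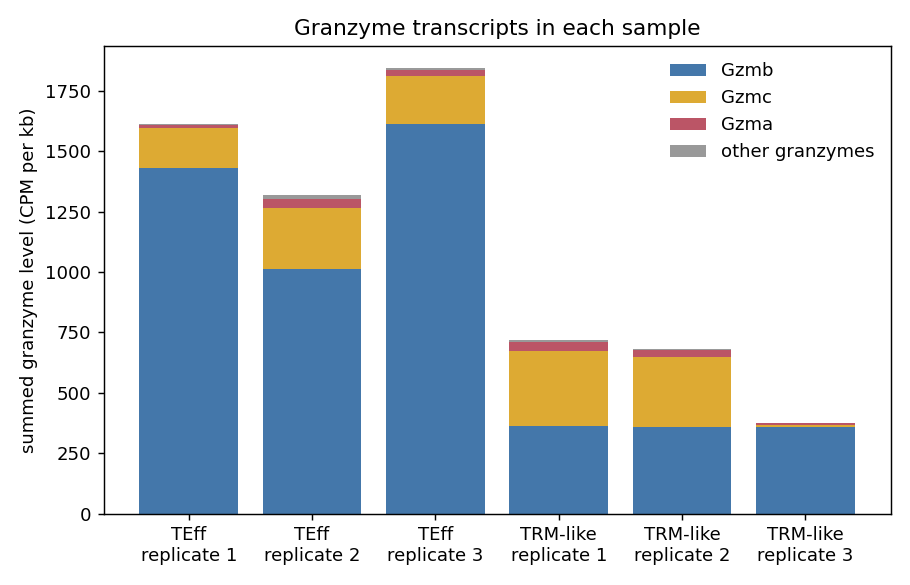
Summed level of the granzyme genes in CPM per kilobase of gene length in each of the 6 samples, with stacked bars for *Gzmb*, *Gzmc*, *Gzma* and the other granzymes. The sum was 1319 to 1843 in the TEff samples and 375 to 717 in the TRM-like samples, and *Gzmc* made up 43.6% and 42.4% in TRM-like replicates 1 and 2 but 2.82% in replicate 3.

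The cluster genes are copies of each other, which limits how far their counts can be told apart. *Gzmb* and *Gzmc* share a run of 49 bases in exon 4, coding in both, at chr14:56497839-56497887 in *Gzmb* and chr14:56469896-56469944 in *Gzmc* (GRCm39, minus strand, 5′ to 3′), which is printed as the longest stretch in which a read could not be assigned between them.
shared run of *Gzmb* and *Gzmc*: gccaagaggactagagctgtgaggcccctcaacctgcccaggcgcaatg
No window of 50 bases in the *Gzmb* transcript occurred in another gene's transcript, and 3.95% of those of *Gzmc* did. Of the other granule genes, only *Serpinb9* shared any, 0.388%, with *Serpinb9b*. For *Gzme*, *Gzmd* and *Gzmg* the share was 25.1%, 23.1% and 19.8%, and for *Gzmf* and *Gzmn* it was 10.6% and 7.04%. With windows of 100 bases, the shares fell to at most 0.247% in the cluster and were 0 for all 10 granule genes. How the authors counted reads that fit several genes was not given in the sources used here.

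The 5 other granzyme genes of the cluster were present at low levels, and *Gzmn* had no count in any sample. *Gzmd* stood at 1.14, 7.90 and 2.16 CPM in TEff and 0.349, 0.218 and 0.0461 CPM in TRM-like replicates 1, 2 and 3, with every TRM-like sample below every TEff sample. It was the 1 of 4 tested that was called, lower, beside 1.48% of all genes. Its log2 fold change was -4.13 (SE 0.85; adjusted p = 0.0355, edgeR's quasi-likelihood F test, Benjamini-Hochberg adjusted), on 156 reads in TEff replicate 2 and 1 to 39 in the other samples. That call was lost in limma-voom and without TEff replicate 2, TEff replicate 3, TRM-like replicate 1 or TRM-like replicate 2. *Gzme* had 0.732, 3.95 and 1.33 CPM in TEff replicates 1 to 3, 0.436 and 0.306 CPM in TRM-like replicates 1 and 2 and no read in replicate 3, and was not called with all samples but was called lower without replicate 3. *Gzmf* was detected at 0.166 to 1.11 CPM in TEff and 0.0461 to 2.31 CPM in TRM-like samples, and *Gzmg* at up to 0.354 CPM.

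*Srgn* encodes serglycin, the proteoglycan whose chondroitin sulfate chains hold granzymes and perforin in the granule. *Srgn* stood at 181, 193 and 184 CPM in TEff replicates 1, 2 and 3, and at 354, 409 and 154 CPM in TRM-like replicates 1, 2 and 3. TRM-like replicates 1 and 2 were well above the narrow TEff range and replicate 3 was below it. With all samples the log2 fold change of 0.72 (SE 0.30) did not pass, at an adjusted p of 0.313 by edgeR's quasi-likelihood F test, Benjamini-Hochberg adjusted. Without replicate 3 it was 1.03 (SE 0.10), and *Srgn* was called higher at an adjusted p of 1.83e-05 in the same edgeR test. *Srgn* was also called higher when no filter on low counts was used, where its SE was 0.176. In that fit *Gzma* and *Gzmc* had nearly the same SE, 0.176 and 0.174, against 0.56 and 0.83 with the filter. The spread of single genes between replicates thus weighed little in that call.

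*Ctsw* encodes cathepsin W, a papain-like cysteine protease found mainly in CD8+ T and NK cells. *Ctsw* stood at 208, 249 and 220 CPM in TEff replicates 1, 2 and 3, and at 561, 616 and 309 CPM in TRM-like replicates 1, 2 and 3. Every TRM-like sample was above every TEff sample, with replicate 3 nearest to them. The means were 226 ± 20.9 and 496 ± 164 CPM, and the log2 fold change was 1.14 (SE 0.24; adjusted p = 0.0423 by edgeR's quasi-likelihood F test, Benjamini-Hochberg adjusted). Without replicate 3 it was 1.37 (SE 0.11; adjusted p = 1.88e-06 in the same edgeR test), and leaving out any other sample lost the call, at adjusted p of 0.126 to 0.225. The 3′ end of *Ctsw* overlaps *Fibp*, a gene on the opposite strand that had 400 to 627 reads per sample against 3986 to 14106 for *Ctsw*.

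*Nkg7* encodes a membrane protein of the granule that is needed for granule release. It stood at 175, 217 and 200 CPM in TEff and at 214, 240 and 226 CPM in TRM-like replicates 1, 2 and 3. TRM-like replicate 1 fell just below TEff replicate 2, so the groups overlapped, and replicate 3 lay between the other TRM-like samples. The log2 fold change was 0.20 (SE 0.14; adjusted p = 0.568, edgeR's quasi-likelihood F test, Benjamini-Hochberg adjusted), and 0.19 without replicate 3.

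*Serpinb9* encodes the cytosolic inhibitor of granzyme B, and its RNA, like that of *Gzmb*, was lower in the TRM-like than in the TEff samples. It stood at 39.6, 42.2 and 49.7 CPM in TEff replicates 1, 2 and 3, and at 20.8, 22.1 and 17.6 CPM in TRM-like replicates 1, 2 and 3. The groups did not overlap, and replicate 3 was the lowest of the TRM-like samples by a small margin. The means were 43.8 ± 5.24 and 20.1 ± 2.32 CPM, with a log2 fold change of -1.12 (SE 0.15; adjusted p = 0.00458 by edgeR's quasi-likelihood F test, Benjamini-Hochberg adjusted), and of -1.04 (SE 0.13) without replicate 3.

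**Figure D3:**
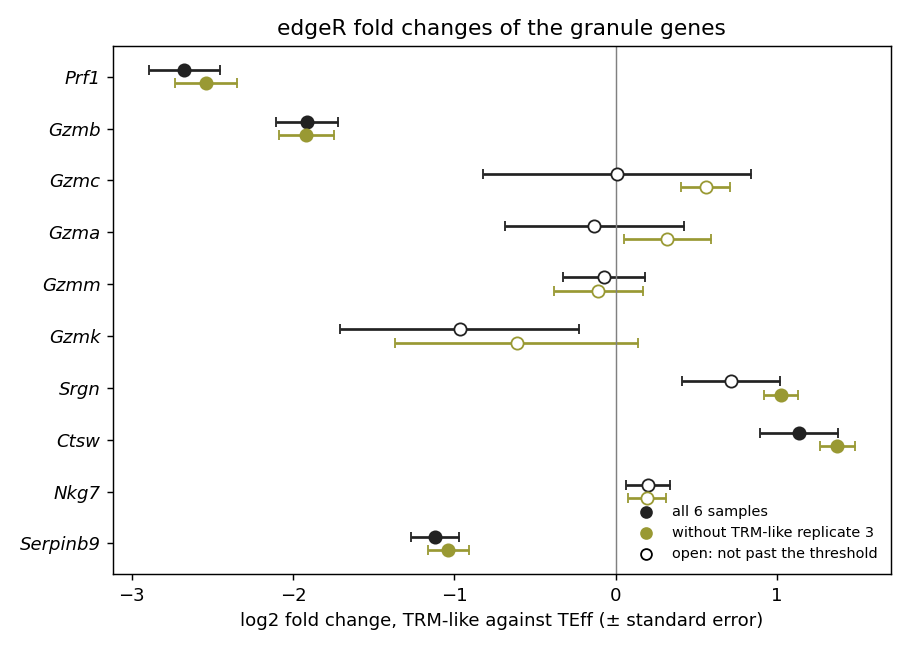
Log2 fold change of TRM-like against TEff cells for the 10 cytotoxic granule genes, with the standard error, in all 6 samples (black) and without TRM-like replicate 3 (olive); filled points passed the threshold. *Prf1*, *Gzmb* and *Serpinb9* were lower in both, at -2.67, -1.91 and -1.12 with all samples, *Ctsw* was higher in both, and *Srgn* passed in the fit without replicate 3, at 1.03, and not in the other.

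Leaving out TRM-like replicate 3 thus changed 1 call of the 10. Without it, *Srgn* and *Ctsw* were called higher, 2 of 10 beside 6.38% of the 25478 genes then tested, and *Prf1*, *Gzmb* and *Serpinb9* were called lower, 3 of 10 beside 7.67%. The median log2 fold change of the 10 genes was then 0.04, beside 0.02 over all genes. In this fit the groups also differ in the number of genes with a count, as described above.

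The order of the genes by level per kilobase changed between the groups. In TEff cells *Gzmb* led at 1353 ± 308 CPM per kilobase, far above *Nkg7* (224 ± 24.5), *Gzmc* (203 ± 45.8) and *Ctsw* (182 ± 16.9), whose neighbouring ranges overlapped. *Srgn* followed at 106 ± 3.39, then *Gzma* (27.1 ± 11.8), *Prf1* (15.4 ± 3.16) and *Serpinb9* (12.5 ± 1.499), again with overlapping neighbours, and *Gzmm* (1.24) and *Gzmk* (0.175) were last. In TRM-like cells *Ctsw*, at 399 ± 132 CPM per kilobase, and *Gzmb*, at 359 ± 1.92, led with overlapping ranges. *Nkg7* (258 ± 14.7), *Gzmc* (204 ± 168) and *Srgn* (174 ± 76.4) came next. The range of *Gzmc* overlapped those of both others, while *Nkg7* lay above *Srgn* without overlap. *Gzma* (24.7 ± 16.6) and *Serpinb9* (5.77 ± 0.663) followed, overlapping each other. *Prf1*, at 2.40 ± 0.551 CPM per kilobase, was below *Serpinb9* without overlap, while in TEff cells the ranges of these 2 genes overlapped. *Gzmm* (1.17) and *Gzmk* (0.0859) were again last.

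Ratios within a sample do not depend on library scaling and show how unevenly the genes differed. The *Gzmb* to *Prf1* ratio per length was 87.7, 85.4 and 90.0 in TEff replicates 1, 2 and 3 and 121, 154 and 189 in TRM-like replicates 1, 2 and 3, so that the pore gene was scarcer relative to its main granzyme in every TRM-like sample. The *Gzmb* to *Serpinb9* ratio was 126, 83.9 and 114 in TEff and 60.7, 57.0 and 71.1 in TRM-like samples, so that the protease was scarcer relative to its inhibitor gene. For *Gzmb* to *Ctsw* the ratio was 8.55, 5.05 and 9.09 in TEff and 0.799, 0.724 and 1.43 in TRM-like samples. None of these 3 ratios overlapped between the groups. TEff replicate 2, the lowest TEff sample for *Gzmb*, was also the lowest for *Prf1*, and its *Gzmb* to *Prf1* ratio was close to those of the other TEff samples.

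The genes whose pattern was most like *Gzmb* and *Prf1* were found by Pearson's r of log2 CPM over the 6 samples, among the 14822 genes that had 10 or more reads in each sample. Those nearest to *Gzmb* were *Dap3* (r = 0.998), a gene of the mitochondrial ribosome, *Dnajc10* (r = 0.996), an endoplasmic reticulum chaperone gene, and *Etv5* (r = 0.996), which encodes an ETS factor. For *Prf1* they were *Dynlt2b* (r = 0.999), a dynein light chain gene, *Havcr2* (r = 0.996), the gene of the receptor Tim-3, and *Gm11579* (r = 0.992). With 6 points in 2 groups that share libraries, such values describe which genes have the same pattern over the samples, whatever the size of the difference. The log2 fold changes were -0.78 to -1.69 for the 3 genes nearest to *Gzmb* (-1.91) and -1.21 to -2.38 for the 3 nearest to *Prf1* (-2.67). *Dynlt2b*, at 0.507 to 1.44 CPM, was not called (adjusted p = 0.0821, edgeR's quasi-likelihood F test, Benjamini-Hochberg adjusted).

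Beyond the 10 genes, the wider granule machinery was read from lists of genes. Of 15 tested genes for lysosomal proteases, their inhibitors and calreticulin, 2 were called higher and 2 lower, beside 1.52% and 1.48% of all genes, and the median log2 fold change was -0.10, beside 0.02 over all genes. *Serpina3g*, an inhibitor of cysteine cathepsins, stood at 15.1, 19.3 and 15.0 CPM in TEff and 65.9, 77.5 and 59.9 CPM in TRM-like replicates 1, 2 and 3. With every TRM-like sample far above every TEff sample, *Serpina3g* rose by a log2 fold change of 2.04 (SE 0.16; adjusted p = 0.000367, edgeR's quasi-likelihood F test, Benjamini-Hochberg adjusted). *Serpinb6b*, which encodes an intracellular serpin, stood at 85.2, 91.2 and 95.7 CPM in TEff and at 22.4, 22.1 and 13.2 CPM in TRM-like samples. It thus fell in every TRM-like sample, with a log2 fold change of -2.24 (SE 0.21; adjusted p = 0.000780, the same edgeR test). The serpin genes that passed therefore moved in both directions, and the third, *Serpinb1a*, an inhibitor of neutrophil-type serine proteases, was lower, with a log2 fold change of -1.82 and 2.75, 3.67 and 8.35 CPM in TRM-like against 13.7 to 20.0 CPM in TEff samples. *Ctss*, encoding the lysosomal cysteine protease cathepsin S, was higher, with 106, 115 and 67.6 CPM in TRM-like against 43.0 to 46.8 CPM in TEff samples and a log2 fold change of 1.10. As for *Ctsw*, replicate 3 was nearest to the TEff samples. *Serpinb1a* and *Ctss* each lost the call when any one sample other than TRM-like replicate 3 was left out. *Ctsc*, whose product cathepsin C removes the propeptide of granzymes, had 123 to 146 CPM in TRM-like and 91.0 to 94.5 CPM in TEff samples without overlap. It missed both thresholds, with a log2 fold change of 0.55 and an adjusted p of 0.0542 in the same edgeR test.

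**Figure D4:**
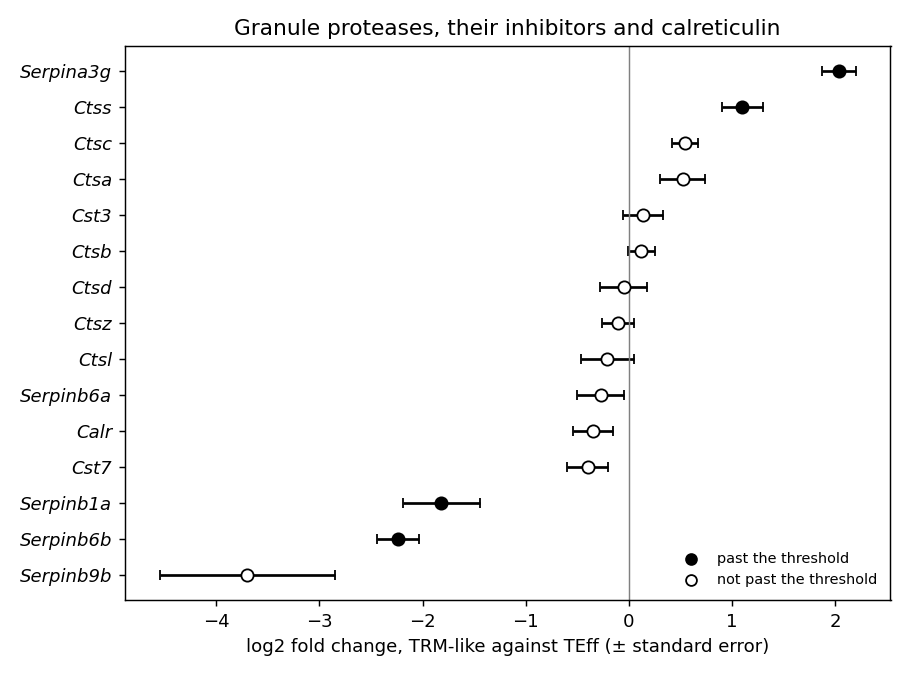
Log2 fold change of TRM-like against TEff cells, with the standard error, for the 15 tested genes of granule proteases, their inhibitors and calreticulin; filled points passed the threshold. *Serpina3g* (2.04) and *Ctss* (1.10) lay to the right, *Serpinb1a* (-1.82) and *Serpinb6b* (-2.24) to the left, and the other 11 genes did not pass.

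Granule traffic and exocytosis covers the genes that carry granules to the membrane and fuse them there. Of 31 tested genes, 1 was called higher and 1 lower, beside 1.52% and 1.48% of all genes. In 9 of the 31 every TRM-like sample was above every TEff sample and in 2 every one was below, beside 10.6% and 9.71% of all genes, and the median log2 fold change was 0.22, beside 0.02 over all genes. *Sytl2*, which encodes a synaptotagmin-like protein that binds Rab27 at the plasma membrane, stood at 95.5, 108 and 104 CPM in TEff and 61.7, 52.1 and 49.2 CPM in TRM-like replicates 1, 2 and 3. No sample overlapped, and *Sytl2* fell by 0.92 on the log2 scale (SE 0.14; adjusted p = 0.00807, edgeR's quasi-likelihood F test, Benjamini-Hochberg adjusted), a call lost without TEff replicate 3. *Stx7*, a SNARE gene of late endosomes, stood at 13.2 to 14.5 CPM in TEff and 19.5 to 25.9 CPM in TRM-like samples, with a log2 fold change of 0.73 and an adjusted p of 0.0350 in the same edgeR test, lost when any one sample other than TRM-like replicate 3 was left out. *Rab27a*, the small GTPase gene of granule docking, had a log2 fold change of -0.06 (SE 0.13), and *Unc13d*, whose product Munc13-4 primes granules for fusion, had one of 0.24 (SE 0.13). Without TRM-like replicate 3, 4 genes of this list were called higher and 2 lower, beside 6.38% and 7.67% of all genes in that fit.

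None of the 5 genes of mannose 6-phosphate sorting, by which granzymes reach the granule, was called. The smallest p-values there belonged to *Gnptab*, which encodes the enzyme that starts the tag (log2 fold change -0.47, SE 0.13), and *Igf2r*, the larger receptor (-0.30, SE 0.12). For both, every TRM-like sample was below every TEff sample, as for 9.71% of all genes tested. For none of the 5 was every TRM-like sample above, beside 10.6%. The median log2 fold change of the 5 was 0.07, beside 0.02 over all genes. Of 13 tested genes for the chondroitin sulfate chains that serglycin carries, 1 was called higher, beside 1.52% of all genes, and none lower, beside 1.48%. The gene called was *B4galt7*, for the linker that joins chain and protein, with 44.3, 48.8 and 39.4 CPM in TRM-like against 26.7 to 31.2 CPM in TEff samples (log2 fold change 0.62, SE 0.14). This call lay close to the fold threshold, at an adjusted p of 0.0458 by edgeR's quasi-likelihood F test, Benjamini-Hochberg adjusted, and was lost when any one sample other than TRM-like replicate 3 was left out. Without replicate 3, 2 genes of this list were called higher and 1 lower, beside 6.38% and 7.67% of all genes in that fit.

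Killing that does not use granules was represented by death ligands and cytokines. Of 5 tested genes, 1 was called higher, beside 1.52% of all genes, and none lower, beside 1.48%. *Tnfsf10*, the gene of TRAIL, stood at 45.8, 54.4 and 46.3 CPM in TEff and 150, 151 and 71.4 CPM in TRM-like replicates 1, 2 and 3. Every TRM-like sample was above the TEff samples, replicate 3 least so, and the log2 fold change was 1.35 (SE 0.27; adjusted p = 0.0298, edgeR's quasi-likelihood F test, Benjamini-Hochberg adjusted), a call lost when any one sample other than replicate 3 was left out. *Fasl* had 54.0 to 65.7 CPM in TEff and 90.8, 95.3 and 53.5 CPM in TRM-like samples, so that replicates 1 and 2 were above and replicate 3 below the TEff range, and it was not called with all samples but was called higher without replicate 3. Among 10 genes of transcription factors of the cytotoxic program, *Eomes* was the 1 called, lower, beside 1.48% of all genes. It had 8.96 to 12.9 CPM in TEff and 1.84 to 3.18 CPM in TRM-like samples. In 5 of the 10 every TRM-like sample was below every TEff sample, beside 9.71% of all genes, and in none was every one above, beside 10.6%. The median log2 fold change of the 10 was -0.19, beside 0.02 over all genes. *Runx3*, whose motif is described above, stood at 55.5, 91.8 and 52.3 CPM in TEff and 183, 161 and 77.4 CPM in TRM-like samples, which overlapped, and was called higher without replicate 3 but not with all samples. *Tbx21*, the gene of T-bet, had a log2 fold change of -0.26 (SE 0.20).

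The samples were checked for other cells that carry granule genes. All 9 CD8 T cell markers were detected in every sample, at a summed 4514 to 4729 CPM in TEff and 4301 to 6861 CPM in TRM-like samples. TRM-like replicate 3 had the lowest sum of the 6 samples. *Cd8a* was at 421 to 448 and 927 to 989 CPM. Of the 9, 1 was called higher, beside 1.52% of all genes, and none lower. In 2 of the 9 every TRM-like sample was above every TEff sample, beside 10.6% of all genes. The median log2 fold change of the 9 was 0.13, and 0.32 without TRM-like replicate 3. The 6 NK cell markers summed to 34.6 to 49.8 CPM in TEff and 10.3 to 23.4 CPM in TRM-like samples, almost all from *Klri2* and *Klrb1c*. *Klri2* was the 1 of the 6 that was called, lower, beside 1.48% of all genes. The median log2 fold change of the 6 was 0.55, and 0.89 without TRM-like replicate 3, since *Ncr1*, *Klra8* and *Klra9* had positive values at levels of no more than 0.262 CPM in any sample, while *Klri2*, *Klrb1c* and *Klra4* were lower in every TRM-like sample. The sum was lower in the TRM-like samples, as were *Prf1* and *Gzmb*, and its part in those results was not tested. *Ncr1*, the defining NK cell receptor gene, had no read in TEff replicate 3 and in TRM-like replicate 3. The 4 CD4 T cell markers summed to 35.9 to 41.5 CPM in TEff and 18.4 to 25.99 CPM in TRM-like samples, nearly all of it *Zbtb7b*, with *Cd4* at no more than 0.111 CPM. Markers of mast cells and granulocytes, whose granules hold serglycin, summed to at most 0.917 CPM, with *Mcpt4*, *S100a8* and *S100a9* at 0 in every sample. The 5 dendritic cell markers summed to 9.31 to 13.03 CPM in TEff and 2.91 to 6.02 CPM in TRM-like samples without overlap. Of the 4 tested, *Batf3* was called, lower, beside 1.48% of all genes, and the median log2 fold change was -0.75. The 5 B cell markers summed to 5.94 to 6.78 CPM in TEff and 7.29 to 10.9 CPM in TRM-like samples, again without overlap, mostly from *Cd79b*, with none of 3 tested called. The 5 macrophage and monocyte markers summed to 3.89 to 4.42 and 2.72 to 4.54 CPM, with none of 4 tested called. The part of these cells in the granule gene results was not tested.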

How the data were processed

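RNA-seq libraries of total RNA from the 3 TEff and 3 TRM-like samples were made with a stranded kit. The authors trimmed reads with Cutadapt 4.8, mapped and counted them with Rsubread on GRCm39. They deposited the raw counts, not normalized, beside each gene's length. The strand setting and the treatment of reads that map to several places were not given in the sources used here. A batch that the study removed is not named, and none was removed here. Symbols and coordinates came from a GENCODE annotation of the same build and matched 56620 of 57126 genes.

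Genes that had at least 1 count in 3 or more samples entered the test with edgeR 4.0.16 in R 4.3.3 (TMM, glmQLFit, glmQLFTest), with Benjamini-Hochberg adjustment over all 26154 genes. The SE is the log2 fold change divided by the square root of F. Overlap of groups was read from CPM. Promoters and shared windows were read from GRCm39 by script. The test was tested on simulated data in which no sample stood apart as TRM-like replicate 3 does, and no result here rests on that trial. The granule genes, the further lists and the motifs were chosen with earlier results of these data known. In each further list, the genes named were those called (at most 8), or the pair with the smallest p-values, and all other cluster granzymes. Genes named beside them (Ctsc, Rab27a, Unc13d, Fasl, Runx3, Tbx21 and single markers) were chosen after their values were seen. Alternatives were DESeq2 1.42.0, limma-voom (limma 3.58.1), DESeq2's size factors, library totals, filterByExpr, no filter, 10 or more counts in all samples, the replicate number as a block, the adjusted p alone, and each sample left out. Granzyme shares were also computed without length, and the Gzmc share with its neighbouring granzymes as one. The block with 10 or more counts was added after seeing the data.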

Additional observations from a re-analysis of the deposited data

How the results depend on the processing

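*Prf1*, *Gzmb* and *Serpinb9* were called lower under every alternative run. The number of granule genes called higher was 1 (*Ctsw*) and became 0 in limma-voom and when 10 or more counts were required in all samples, where the adjusted p of *Ctsw* was 0.0554 and 0.0594, and 2 (*Srgn* added) with no filter and with the replicate block. It ranged from 0 to 2 with each sample left out. Whether the replicate numbers in the labels pair the samples was not given in the sources used here. The deviations of same-numbered samples from their group means correlated at -0.285, 0.301 and 0.382 over 14822 genes. The largest r, 0.512, was between TEff replicate 2 and TRM-like replicate 1. Deviations within a group depend on each other, so these values cannot show whether the samples were paired. With the replicate block, 4 granule genes were called lower, *Gzmc* added, and 955 and 1079 genes were called higher and lower in all, against 398 and 388 without it. When 10 or more counts were required in all samples, the block gave 443 and 460, and neither *Gzmc* (adjusted p = 0.706) nor *Srgn* (adjusted p = 0.206) was called by edgeR, leaving 3 granule genes lower and 1 higher.

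The direction of *Gzmc* changed with the processing. Its log2 fold change of 0.01 became -1.01 in limma-voom, -0.70 with the replicate block, -0.68 with the block and 10 or more counts, -0.0012 with library totals and -0.0019 with no filter, and ranged from -0.44 to 0.56 with each sample left out. *Gzma* turned to 0.19 without TEff replicate 2 and 0.32 without TRM-like replicate 3, in a range from -0.59 to 0.32 with each sample left out, and *Gzmm* to 0.017 without TRM-like replicate 2, in a range from -0.14 to 0.017. None of these was called except *Gzmc* with the block, where its SE was 0.22. That SE was 0.83 in the main fit and 0.82 with the block and 10 or more counts. With the block alone, edgeR's prior degrees of freedom were infinite, so each gene's spread was set by the trend over all genes. The cause of the changed directions was not tested. Over all genes, DESeq2 called 671 higher and 593 lower, no filter 1002 and 866, and leaving out TRM-like replicate 3 gave 1625 and 1954, whereas leaving out any other sample gave 119 to 221 and 144 to 222. The mean share of *Gzmc* in the granzyme sum of the TRM-like samples was 29.6%, 22.3% without division by gene length, 29.9% with the granzymes C to G and N as one, and 22.6% to 43.0% with each sample left out. The 1 to 8 reads of *Gzmk* limit its comparison, as do the low counts of *Gzmm*.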
